A study of Mus musculus with 7 samples.

Results

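The 10 genes of NF-kB factors and feedback inhibitors were taken from the 24341 genes of the deposited expression table by their symbols, and all 10 were listed. They encode the 5 NF-kB subunits (Nfkb1, Nfkb2, Rel, Rela and Relb), 3 classical IkB inhibitors (Nfkbia, Nfkbib and Nfkbie), the ubiquitin-editing protein A20 (Tnfaip3) and the atypical IkB protein Bcl-3 (Bcl3). RNA-seq was performed on B-cell precursors (BCP) sorted by flow cytometry from the spleens of mice that carried the Eμ-Ret transgene as hemizygotes on a BALB/c background. The transgene is an oncogenic Ret fusion driven by the immunoglobulin heavy chain enhancer, and both groups carried it, so no transgene-negative cells stood in the comparison. The 4 preleukemic samples came from young healthy mice and the 3 leukemic samples from older moribund mice with overt disease. Age and disease cannot be told apart in this design, and because these are bulk samples, fewer cells of a type and less RNA per cell cannot be told apart either.

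NF-kB proteins act as dimers that IkB proteins hold in the cytoplasm. Kinases of the IKK complex mark the IkB proteins for destruction when receptors for TNF family ligands, Toll-like receptors or antigen receptors are engaged, and the freed dimers enter the nucleus. Among the genes they switch on are their own inhibitors, Nfkbia, Nfkbie and Tnfaip3, which close a negative feedback loop. In developing B cells the pathway supports survival and is engaged by pre-B cell receptor signals.

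Tnfaip3 fell from preleukemia to leukemia, and no other gene of the 10 passed the test. The mean level dropped from 22.0 ± 2.02 FPKM (SD, n = 4) before disease to 7.85 ± 2.18 FPKM (SD, n = 3) in leukemia, a 2.81-fold lower level. FPKM is the number of sequenced fragments of a gene scaled to the length of its transcript and to the depth of the sample. With limma on log2(FPKM + 1), 1 of 10 genes was called at an adjusted p under 0.05, against 14.7% of the 10541 genes tested. The values of the groups did not overlap for 2 of the 10 genes, against 32% of all genes tested. The median log2 fold change of the 10 genes was -0.07, beside -0.02 over all genes tested.

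The kB element, the short DNA motif bound by NF-kB dimers, was searched for in RefSeq promoter windows on GRCm38.p6 (250 bases before to 50 after each start site), on both strands and with the general consensus for the element. Windows were found for 8 of the 10 genes, and 6 of the 8 genes held at least 1 match (75.0%), beside 5.14% of all 27025 genes with a window. The 10 genes were chosen for their place in the NF-kB pathway and its feedback, so this high share is not an independent result. The 6 were Tnfaip3, Nfkbia, Nfkbie, Rel, Nfkb2 and Bcl3, and no match lay in the windows of Rela and Nfkbib. The 130 bases before the start site are shown for 5 of these genes, to set the feedback loop of the called gene beside that of the uncalled ones, with the matches in capitals. They lie at chr10:19015411-19015540 (minus strand) for Tnfaip3, chr12:55492648-55492777 (minus) for Nfkbia, chr17:45555570-45555699 (plus) for Nfkbie, chr11:23770970-23771099 (minus) for Rel and chr19:46304607-46304736 (plus) for Nfkb2.
Tnfaip3: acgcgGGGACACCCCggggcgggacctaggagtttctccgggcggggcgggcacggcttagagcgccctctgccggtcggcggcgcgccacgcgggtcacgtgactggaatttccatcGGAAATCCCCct
Nfkbia: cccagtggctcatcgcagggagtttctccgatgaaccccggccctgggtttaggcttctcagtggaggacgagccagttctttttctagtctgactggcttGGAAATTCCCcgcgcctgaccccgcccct
Nfkbie: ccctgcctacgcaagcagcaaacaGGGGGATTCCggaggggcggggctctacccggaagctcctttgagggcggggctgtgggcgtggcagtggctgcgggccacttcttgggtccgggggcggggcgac
Rel: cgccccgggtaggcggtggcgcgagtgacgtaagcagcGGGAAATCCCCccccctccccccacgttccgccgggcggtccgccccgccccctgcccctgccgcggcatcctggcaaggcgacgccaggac
Nfkb2: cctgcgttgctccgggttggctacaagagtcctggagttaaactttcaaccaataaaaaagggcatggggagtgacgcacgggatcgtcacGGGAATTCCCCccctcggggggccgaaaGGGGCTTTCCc
Tnfaip3 held 2 matches, GGGACACCCC with its first base 125 bases before the start site and GGAAATCCCC with its last base 3 bases before it. The capitals of Rel, and the first run of capitals of Nfkb2, each hold 2 overlapping matches. The match of Bcl3, GGGAAGTCCC, lay after the start site. Both the gene that fell and feedback inhibitors that were not called had a match in this window. Among all genes tested, 490 had a match and 16.7% of them were called (40 higher and 42 lower), beside 14.3% of the 7638 genes with a window and no match. A match to these letters is a description of the sequence and not a measured binding site.

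Among the subunits, Nfkb1, which encodes p105 and its product p50, had the highest level. It measured 63.0, 52.6 and 61.5 FPKM in leukemic replicates 1 to 3 and 58.3, 55.2, 60.8 and 67.4 FPKM in preleukemic replicates 1 to 4. The groups overlapped, with a log2 fold change of -0.03 (95% confidence interval -0.27 to 0.20; limma adjusted p = 0.834). Rela encodes p65, the transactivating partner of p50. Its levels were 38.4, 32.3 and 37.0 FPKM in leukemic and 37.6, 36.1, 37.6 and 38.4 FPKM in preleukemic samples, with a log2 fold change of -0.06 (interval -0.25 to 0.13). Rela had the smallest standard error of the 10 genes, 0.08.

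Rel encodes c-Rel, which is prominent in lymphocytes. It measured 5.34, 8.09 and 8.59 FPKM in leukemic and 7.20, 10.4, 8.00 and 8.89 FPKM in preleukemic samples, and its log2 fold change was -0.22 (interval -0.64 to 0.20; limma adjusted p = 0.409). The remaining pair serves the alternative pathway, in which p100 from Nfkb2 is processed to p52 and pairs with RelB. Nfkb2 measured 12.8, 16.0 and 16.0 FPKM in leukemic and 15.3, 16.8, 19.0 and 21.4 FPKM in preleukemic samples. Its estimate of -0.26 (interval -0.58 to 0.06; limma adjusted p = 0.217) was the lowest of the 5 subunits, and the groups overlapped. When every sample was scaled to the same sum of FPKM, which moved the median of all genes to -0.18, Nfkb2 was called (-0.43, limma adjusted p = 0.0467). Relb ranged from 7.46 to 10.7 FPKM in leukemic and from 7.69 to 11.4 FPKM in preleukemic samples, with a log2 fold change of -0.08 (interval -0.46 to 0.31). All 5 subunit estimates lay between -0.26 and -0.03, and the intervals leave room for falls of up to 0.64 on the log2 scale for Rel.

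Summed over the 5 subunits, the level was 117 to 134 FPKM in leukemic and 126 to 148 FPKM in preleukemic samples. Nfkb1 made up 44.8 to 49.7% of that sum in leukemic and 42.9 to 46.2% in preleukemic samples. Rela made up 27.5 to 30.2% and 26.0 to 29.8%, so that the p50 and p65 genes together led in both groups. Nfkb2, Rel and Relb each stayed between 4.20 and 14.5% in every sample. The shares of each subunit overlapped between the groups.

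**Figure D1:**
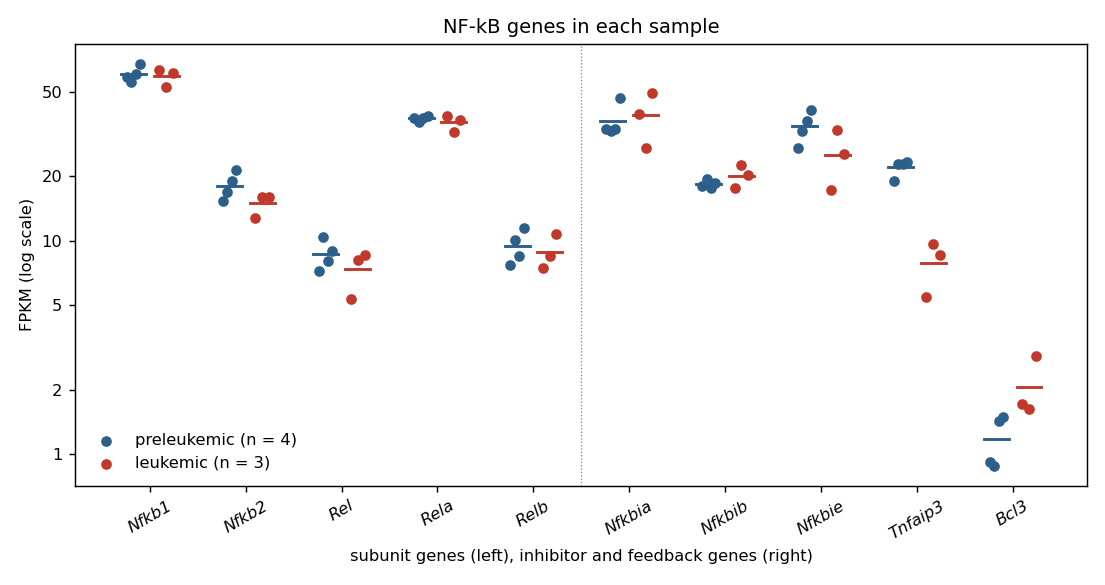
FPKM on a log scale for each of the 10 genes in the 4 preleukemic (blue) and 3 leukemic (red) samples, with points for samples and lines for group means. Tnfaip3 lies between 19.0 and 23.4 FPKM in preleukemic samples and between 5.41 and 9.60 FPKM in leukemic samples, and Bcl3, at low levels, is the other gene whose groups do not overlap.

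Among the IkB genes, Nfkbia encodes IkBα, the inhibitor that is destroyed and remade fastest after a signal. It measured 39.5, 27.1 and 49.4 FPKM in leukemic and 33.6, 32.5, 33.5 and 46.8 FPKM in preleukemic samples. Leukemic samples held both its lowest and its highest value, and the log2 fold change was 0.05 (interval -0.45 to 0.56; limma adjusted p = 0.881). The table lists Nfkbia over 211834 bases of chromosome 12, a span that takes in 4 other listed genes (1110008L16Rik, Mir1198, Ppp2r3c and Psma6), whereas RefSeq gives it 3239 bases. How fragments of these genes were shared out is not given in the sources used here, so the level of Nfkbia is uncertain. Nfkb2 and Nfkbib each overlap 1 other listed gene (Psd and Gm6537), and the other 7 genes overlap none.

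Nfkbib encodes IkBβ, which is less tied to NF-kB induction. It ranged from 17.7 to 22.6 FPKM in leukemic and from 17.6 to 19.5 FPKM in preleukemic samples, with a log2 fold change of 0.12 (interval -0.11 to 0.34; limma adjusted p = 0.426). Under the scaling to the same sum, the estimates of Nfkbia and Nfkbib changed sign, to -0.11 and -0.043. Nfkbie encodes IkBε, an inhibitor best known from B cells. It measured 17.4, 33.1 and 25.4 FPKM in leukemic and 27.3, 32.8, 36.3 and 41.0 FPKM in preleukemic samples. Leukemic replicate 1 was the lowest of the 7 and leukemic replicate 2 fell within the preleukemic range. The log2 fold change of -0.46 (SE 0.22, interval -0.98 to 0.06) was not called, with a limma adjusted p of 0.191.

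The chromosome of Nfkbie stood apart from those of the other 9 genes. On chromosome 17, the median log2 fold change of the 592 genes tested was 0.35, with 199 genes called higher and 3 lower, whereas on the chromosomes of the other 9 genes the median lay between -0.08 and -0.01. Of the estimates on chromosome 17, 95.8% were above that of Nfkbie. Relative to the median of the 590 other genes compared on that chromosome, Nfkbie had a log2 ratio of -0.25, 0.65 and 0.29 in leukemic and 0.86, 1.11, 1.13 and 1.42 in preleukemic samples. These groups did not overlap, with a difference of -0.91. This difference takes in the higher level of the reference genes as well as the estimate of Nfkbie itself (-0.46, not called).

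Bcl3 encodes a nuclear IkB protein that binds p50 and p52 dimers. It measured 1.71, 1.62 and 2.87 FPKM in leukemic and 0.91, 0.88, 1.42 and 1.48 FPKM in preleukemic samples. Every leukemic value was above every preleukemic value, yet the log2 fold change of 0.49 (SE 0.23, interval -0.05 to 1.02) was not called (limma adjusted p = 0.181). At its lowest the level rested on about 21.0 fragments, a counting error of 21.8%, whereas the other 9 genes had at least 348 fragments in every sample. Its mean of 1.56 FPKM left it just above the filter, a sum of 10 FPKM over the 7 samples, which it passed through its leukemic values.

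Tnfaip3 encodes A20, which removes and rearranges ubiquitin chains on signaling proteins upstream of the IKK complex and thereby ends NF-kB activation. The gene spans chr10:19000910-19015410 (mm10). It measured 5.41, 9.60 and 8.55 FPKM in leukemic replicates 1 to 3 and 19.0, 22.8, 22.9 and 23.4 FPKM in preleukemic replicates 1 to 4. The highest leukemic value was well below the lowest preleukemic value. The log2 fold change was -1.41 (SE 0.18, interval -1.82 to -0.99), with an adjusted p of 0.00928 by limma with Benjamini-Hochberg adjustment. Dropping any 1 of the 7 samples kept the call, with estimates from -1.55 to -1.19 and adjusted p from 0.00407 to 0.0457. Even in the shallowest case the value rested on about 497 fragments (4.49% counting error).

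**Figure D2:**
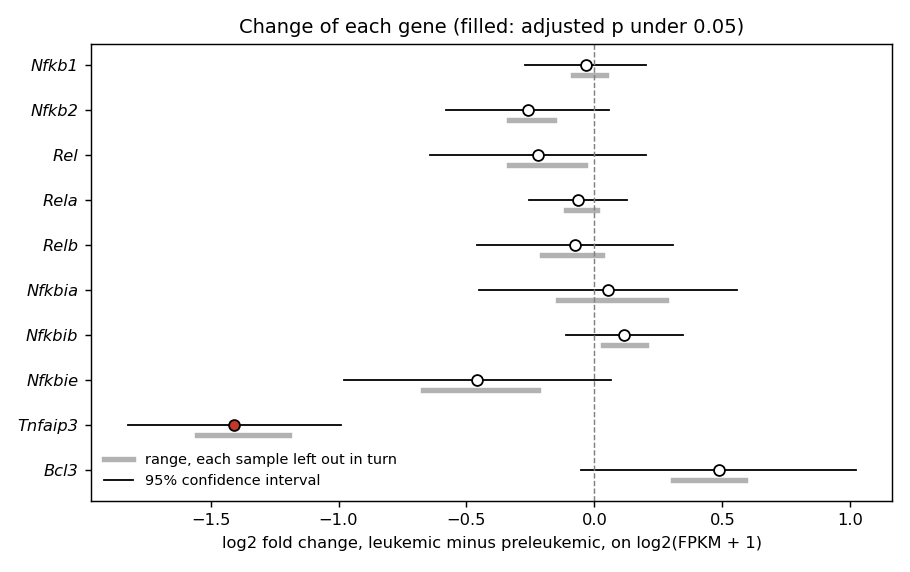
Log2 fold change of each gene, leukemic minus preleukemic, on log2(FPKM + 1), with its 95% confidence interval (black line) and the range of estimates when single samples are dropped (grey bar); filled points were called. Tnfaip3 alone, at -1.41, has an interval that excludes 0.

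Set against the other feedback inhibitors of the same sample, Tnfaip3 was lower in leukemia as well. The log2 ratio of Tnfaip3 to Nfkbie was -1.68, -1.79 and -1.57 in leukemic and -0.52, -0.52, -0.67 and -0.81 in preleukemic samples, a difference of -1.05. To Nfkbia it averaged -2.30 (SD 0.71) over the 3 leukemic and -0.72 (SD 0.23) over the 4 preleukemic samples, a difference of -1.58. Relative to the mean of the other 9 genes, preleukemic samples were at 0.43 (SD 0.09) and leukemic samples at -1.08 (SD 0.34), a difference of -1.50.

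The level of Tnfaip3 was also set against that of genes used as markers of B-cell precursors. The summed FPKM of 14 BCP markers (Cd79a, Pax5, Ebf1, Vpreb1 and others) was 3332 to 5006 in leukemic and 6152 to 7756 in preleukemic samples, and the 7 samples stood in the same order by this sum as by Tnfaip3. Relative to the mean log2 level of the 14 markers, Tnfaip3 had a log2 ratio of -3.60 (SD 0.085) before and -4.33 (SD 0.117) in overt disease. The difference was -0.73, and the groups did not overlap. With a pseudocount of 1, the scale on which the gene itself fell by 1.41, the difference was -0.62. For each of the 4 ratios of Tnfaip3 and that of Nfkbie on its chromosome, an exact two-sided permutation test gave p = 0.0286, the smallest that 3 against 4 samples can give (0.0286 also after Benjamini-Hochberg adjustment over the 5 tests). The ratios were chosen after the values were seen. They are not independent evidence of the fall of Tnfaip3, nor of a fall of Nfkbie, which was not called.

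**Figure D3:**
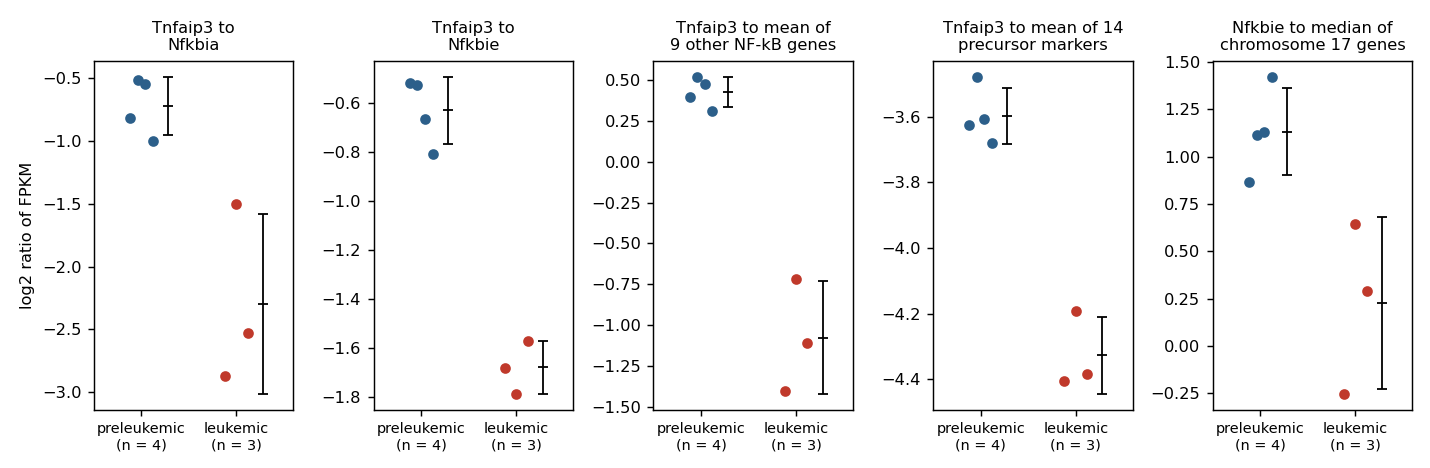
Log2 ratio of FPKM in each sample for Tnfaip3 against 4 references and for Nfkbie against the median of chromosome 17 genes, with points for samples and bars for mean ± SD; each panel has its own scale. The 3 leukemic samples lie below the 4 preleukemic samples in all 5 panels, with the smallest difference, -0.73, for Tnfaip3 against the precursor markers.

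The genes beside Tnfaip3 were examined next. Within 1000000 bases on either side, 18 genes were listed on chromosome 10 and 6 were tested (Abracl, Reps1, Ccdc28a, Ifngr1, Pex7 and Map3k5). By limma 0 of the 6 were called, beside 14.7% of all genes tested. An unadjusted p under 0.05 was found for 1 (Pex7, higher), beside 3586 of all 10541 genes tested. Their estimates lay between -0.35 (Map3k5) and 0.28 (Pex7), and their median was 0.00. Over the whole chromosome, 98.8% of 509 estimates were above that of Tnfaip3. Among 8776 genes with a mean of at least 5 FPKM, the patterns most like that of Tnfaip3 over the 7 samples were those of Arpp21 (Pearson r = 0.998), Phc3 (r = 0.997) and Klhl42 (r = 0.995). Arpp21 fell by 2.54 and Phc3 fell by 0.58 on the log2 scale (limma adjusted p = 0.00928 and 0.0174), and Klhl42 had an estimate of -0.31 (limma adjusted p = 0.0555). These 3 were picked for their likeness, which the difference between the groups dominates.

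Ordered by mean FPKM over the 7 samples, the 10 genes ran from Nfkb1 (59.8) through Nfkbia (37.5), Rela (36.8), Nfkbie (30.5), Nfkbib (19.2), Nfkb2 (16.8), Tnfaip3 (16.0), Relb (9.19) and Rel (8.08) to Bcl3 (1.56). Neighbors from Nfkbia to Nfkbie, and Relb and Rel, overlapped in both groups. Nfkb1 was the highest and Bcl3 the lowest in every sample. Tnfaip3 was the fifth in each preleukemic sample, above Nfkbib and Nfkb2, and between the seventh and the ninth in leukemic samples, at the level of Relb and Rel.

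The samples were not alike within a group. Leukemic replicate 1 held the lowest leukemic value of 6 of the 10 genes and leukemic replicate 2 that of the other 4. Over all genes tested these samples were lowest in 39.5% and 28.8%. Preleukemic replicate 4 held the highest preleukemic value of 8 of the 10 genes, against 26.0% of all genes tested, with Rel and Nfkbib as the exceptions.

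Upstream of the 10 genes, 25 kinases and adaptors of the pathway were all tested, and 1 of them was called, lower (6.26% of all genes tested were called lower). This was Ikbkg, the gene of the IKK scaffold NEMO, with 8.29, 9.12 and 8.84 FPKM in leukemic and 10.7 to 11.7 FPKM in preleukemic samples, which fell by 0.33 on the log2 scale (limma adjusted p = 0.0374). The most abundant were Rbck1 (mean 94.5 FPKM) and Tab2 (55.2 FPKM), with estimates of 0.03 and 0.06, and Prkcb (84.6 FPKM). Prkcb links antigen receptors to NF-kB, and its estimate of -0.62 was not called (limma adjusted p = 0.165). Leukemic replicate 1 was the lowest for it, at 37.8 FPKM. Ikbkg was called by limma without leukemic replicate 2 (adjusted p = 0.0499) and lost its call without any other single sample, and with any 1 of the 4 preleukemic samples left out 0 genes of this list were called. Ikbkg also lost its call with no filter (limma adjusted p = 0.0517) and with a sum of at least 70 FPKM (limma adjusted p = 0.078).

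Of 17 receptors that feed the pathway, 13 were tested, 2 were called higher and 2 lower, beside 8.47% higher and 6.26% lower of all genes tested. Tlr7, a sensor of single-stranded RNA, was called higher, with 12.5, 1.91 and 4.09 FPKM in leukemic samples and between 0.23 and 0.52 FPKM in preleukemic samples (log2 fold change 2.08, limma adjusted p = 0.0315). Tnfrsf1a, the main TNF receptor, rose by 1.25 on the log2 scale (limma adjusted p = 0.0218), from at most 1.01 FPKM to at least 1.97 FPKM. Both passed the filter only through their leukemic values, being too low before disease to reach a sum of 10 FPKM, so that they could enter the test only as rises, and their count is no support for a change of the list. Without leukemic replicate 1 the estimate of Tlr7 was 1.47. Tlr4, the receptor for lipopolysaccharide, fell by 0.66 and Tlr6 fell by 0.61 on the log2 scale (limma adjusted p = 0.048 and 0.0261). The most abundant receptors, Cd180 (mean 51.7 FPKM) and the BAFF family receptors Tnfrsf13c (47.7 FPKM) and Tnfrsf13b (18.2 FPKM), had estimates of -0.34, -0.45 and -0.47 and were not called. Of the 4 calls, 2 were left without preleukemic replicate 1 or without leukemic replicate 3, and 0 without preleukemic replicate 2, 3 or 4. With a sum of at least 70 FPKM, 1 of the 4 (Tlr4) was called.

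Of 18 other inhibitors of the pathway, 17 were tested and 0 were called by limma, beside 14.7% of all genes tested. Of these 17, 3 had an unadjusted p under 0.05, each with a lower estimate, beside 1848 of all 10541 genes tested. In 4 of the 17, every leukemic value was below every preleukemic value, beside 17.1% of all genes tested. Commd1 (mean 82.3 FPKM), Tax1bp1, a partner of A20 (73.1 FPKM), and Otulin, which cleaves linear ubiquitin (36.3 FPKM), had estimates of 0.26, -0.03 and 0.15. The median of the list was -0.11.

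Of 38 genes known as NF-kB targets, 26 were tested. By limma 8 were called higher and none lower, beside 8.47% higher and 6.26% lower of all genes tested. A lower estimate with an unadjusted p under 0.05 was found for 2, beside 1848 of all 10541 genes tested. Tnfaip2 had the largest rise (3.16 on the log2 scale), with 11.1, 30.1 and 20.2 FPKM in leukemic and 5.29, 0.83, 0.47 and 0.46 FPKM in preleukemic samples (limma adjusted p = 0.0172). Ccl5, a chemokine of T cells and macrophages, measured 9.77, 85.5 and 19.6 FPKM in leukemic and 3.14 to 3.94 FPKM in preleukemic samples (log2 fold change 2.55, limma adjusted p = 0.0365). Leukemic replicate 2 was far above the others, and without it the estimate was 1.70 (limma adjusted p = 0.0142). Without leukemic replicate 1 it was 3.21, and without leukemic replicate 3 the call was lost (limma adjusted p = 0.0595). The call of Ccl5 was also lost without any single preleukemic sample (limma adjusted p from 0.074 to 0.1065) and with no filter (limma adjusted p = 0.0577). Il1b, a cytokine of myeloid cells, rose by 2.26 on the log2 scale (limma adjusted p = 0.0121). The other 5 were Ier3, Bcl2a1b, Cd44, Fth1 and Sod2, with log2 fold changes from 0.63 to 1.78. The value of Bcl2a1b is uncertain, since it has near-identical copies in the genome. Of the 8 genes called higher, 3 (Il1b, Ier3 and Bcl2a1b) passed the filter only through their leukemic values, as did 188 of the 893 genes called higher in all, and could enter the test only as rises. Of the most abundant targets, Fth1, which stores iron, averaged 668 FPKM and rose by 1.06, whereas Ltb (327 FPKM) and the B-lineage factor Irf4 (68.8 FPKM) had estimates of -0.66 and -0.31 and were not called. The list split evenly, with 13 estimates above and 13 below 0, and its median was 0.16. With 1 preleukemic sample left out, the number of targets called fell from 8 to between 1 (without replicate 4) and 5 (without replicate 1), and the number of all genes called fell from 1553 to between 149 and 932.

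Of 19 immediate early genes, 14 were tested. Fos, Nr4a1 and Dusp1 were called higher (log2 fold changes 1.88, 1.53 and 1.24), Egr1 was called lower (-1.20), beside 8.47% higher and 6.26% lower of all genes tested, and the median was 0.00. Fos and Nr4a1 passed the filter only through their leukemic values. The most abundant, Dusp2 (97.4 FPKM), Ier2 (79.0 FPKM) and Btg2 (74.4 FPKM), had estimates of -0.52, -0.51 and -0.49 and were not called. With 1 preleukemic sample left out, between 0 (without replicate 4) and 2 (without replicate 1 or 2) of this list were called.

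**Figure D4:**
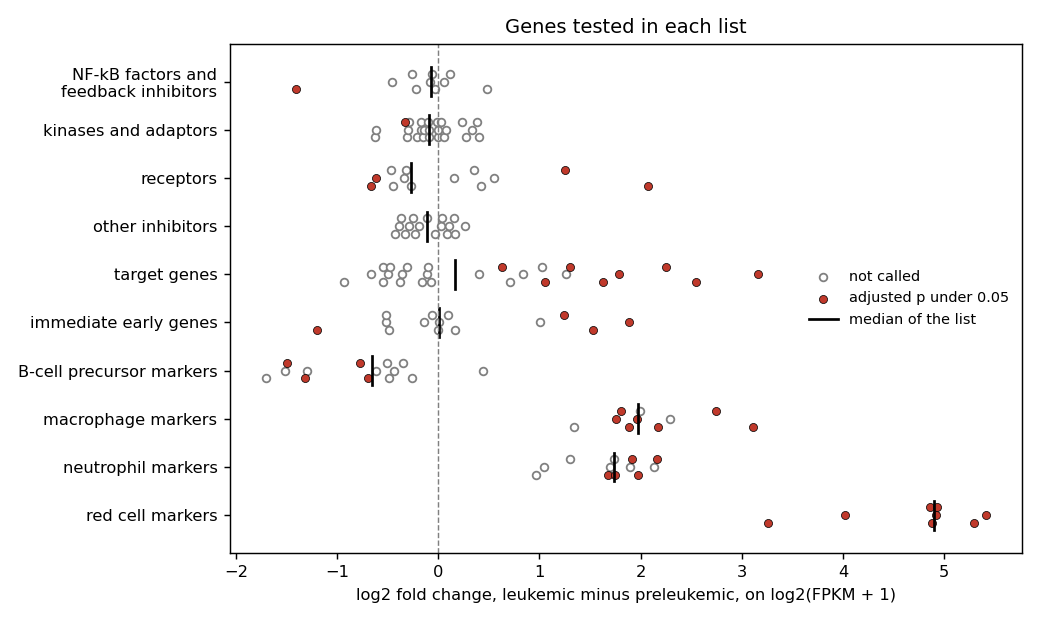
Log2 fold change of each gene tested in 6 pathway lists and 4 lists of cell type markers, with red points for genes called and a black line for the median of each list. Target genes have 13 estimates above 0, of which 8 are called (up to 3.16), and 13 below 0, none of them called. The red cell, macrophage and neutrophil markers lie to the right of 0.

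Markers of other cells moved with the groups and are given beside these lists. Over all genes tested, 8.47% were called higher and 6.26% lower. Red cell markers summed to 4637 to 22880 FPKM in leukemic and 167 to 2159 FPKM in preleukemic samples, and all 8 tested were called higher. Macrophage markers summed to 165 to 379 and 36.7 to 87.1 FPKM (7 of 10 tested called higher), and neutrophil markers to 1429 to 1772 and 150 to 874 FPKM (5 of 12 called higher). Dendritic cell markers summed to at most 8.00 FPKM, and none of the 6 was tested. Marker sums of T and NK cells were 14.6 to 80.3 and 14.5 to 21.6 FPKM, those of mature B cells 39.4 to 159 and 90.6 to 156 FPKM, and those of plasma cells 406 to 945 and 760 to 983 FPKM. By limma 1 of the 4 tested plasma cell markers was called higher, although their sums overlapped. For T and NK cells 0 of 9 tested were called, and for mature B cells 0 of 5. No list had a gene at the lowest listed value in all samples. Preleukemic replicate 1, the lowest preleukemic sample for Tnfaip3, had the highest red cell, macrophage and neutrophil sums of its group. Of the 14 BCP markers 4 were called lower, and Enpep, the gene of the sorting marker BP-1, was at 19.1, 102 and 77.2 FPKM in leukemic and 134 to 210 FPKM in preleukemic samples (not called, limma adjusted p = 0.0688). The part of these cells in the fall of Tnfaip3 and in the rises of targets and receptors was not tested. The ratio to the BCP markers above does not test it, since some of those markers were themselves called lower.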

How the data were processed

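RNA-seq of 7 samples was analyzed, 3 leukemic and 4 preleukemic, grouped by their titles. The authors deposited 1 FPKM value per gene and sample, with 24341 genes and no value below 0.01. The submitters' processing notes name STAR 2.5.0b, Cufflinks 2.2.1, bedtools 2.17.0, Bowtie, DESeq2 and mm10 without roles. FPKM is not a count, so no count model was used. Low values stepped in whole fragments (75.4 to 80.1% within 0.1 of a fragment over 2243 single-transcript genes), which implied a depth of 13.6 to 15.95 (in units of 1000000 fragments) per sample. This covers counting error only.

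Genes with an FPKM sum of 10 or more (10541) were compared by limma (version 3.58.1, R 4.3.3) on a log2 scale after adding 1, with moderated variances that follow intensity and no covariates. p-values were adjusted by Benjamini-Hochberg over all of them and called under 0.05. The fit was tested on simulated data. The p-values measure the spread between these samples. Ratios without a pseudocount were tested by exact permutation (Python 3.11.15, numpy 2.4.6, pandas 2.3.3). Figures were drawn with matplotlib 3.10.9. Promoters were taken from RefSeq (GRCm38.p6).

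The genes, lists and tests were chosen with earlier results of these data known. Named were the 10 genes, the 3 most abundant and up to 3 most changed called genes of each list, and the 3 genes most like Tnfaip3. For the receptors, the target genes and the immediate early genes, all called genes were named. A further precursor marker is not reported here and entered no sum or ratio. A called gene was counted as passing the filter only through its higher group where the mean of the other group, taken for all 7 samples, summed to under 10. The ratios, the neighbors of Tnfaip3, the chromosome medians and the promoter search were chosen after the values were seen. Alternatives were a pseudocount of 0.1, no filter, a sum of at least 70, scaling to the same sum, quantile normalization, no trend, a replicate block and each sample left out.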

Additional observations from a re-analysis of the deposited data

Results flagged for a closer look

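In 15 sets of preleukemic values tested for a sample far from the others of its group, 2 stood out by Dixon's criterion at the 95% level, and chance flags about 1 in 20. Nfkbia was at 46.8 FPKM in preleukemic replicate 4, with a gap of 0.927 of the range of the group, the other 3 lying between 32.5 and 33.6 FPKM. Tnfaip3 was at 19.0 FPKM in preleukemic replicate 1, with a gap of 0.868 of the range, below the other 3 at 22.8 to 23.4 FPKM and above every leukemic sample. The cause of neither was tested.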

How the results depend on the processing

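The call of Tnfaip3 held under 13 of 14 alternatives and was lost with the replicate number as a block (log2 fold change -1.38, adjusted p = 0.129). The block drops preleukemic replicate 4, and it gave 0 calls over all genes by limma (2429 at an unadjusted p under 0.05). It also gave 0 calls among the 10 NF-kB genes, the kinases and adaptors, the receptors, the target genes and the immediate early genes, and put Nfkb1 at 0.019 and Relb at 0.011. Deviations of same-numbered samples correlated at 0.03, 0.05 and -0.09, within the range of samples with different numbers (-0.113 to 0.112). No pairing by number was seen, but a weak one could not have been detected with so few samples. Scaled to the same sum, which moved the median of all genes to -0.18 (2917 called, 686 higher and 2231 lower, against 893 and 660), 2 of the 10 genes were called (Nfkb2 at -0.43, adjusted p = 0.0467), with 6 kinases and adaptors and 4 other inhibitors, and Nfkbia (-0.11) and Nfkbib (-0.043) changed sign. Quantile normalization (754 higher, 907 lower) gave 2 kinases and adaptors. With no filter 1 other inhibitor was called. With a sum of at least 70, which leaves out Rel, Relb and Bcl3, 1 receptor, 3 target genes and 1 immediate early gene were called. With each sample left out in turn, calls ranged from 0 to 2 for kinases and adaptors, 0 to 5 for receptors, 0 to 1 for other inhibitors, 1 to 11 for target genes and 0 to 5 for immediate early genes, and 1 NF-kB gene was called each time. Log2 fold changes ranged from -0.083 to 0.046 for Nfkb1, -0.112 to 0.009 for Rela, -0.206 to 0.028 for Relb and -0.14 to 0.28 for Nfkbia. All genes called fell to 443, 271 and 149 without preleukemic replicates 2, 3 and 4. With a pseudocount of 1, chosen after the values were seen, the difference of Tnfaip3 from the BCP markers was -0.62, and the other ratios moved by less than their spread. Where a value or call changed and no construction is named, the cause was not tested. Depth limits Bcl3 alone among the 10 genes.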
